A study of Homo sapiens with 6 samples.

Results

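The genes described here are the keratins KRT7, KRT8, KRT18 and KRT19, the tight junction genes CLDN1, CLDN7, OCLN and TJP1, and the desmosome genes DSP and JUP. They were taken by name from the annotation of the Affymetrix Human Genome U133 Plus 2.0 array, with every probe set (a group of short probes that reads 1 transcript region) annotated to 1 of these symbols alone. This gave 10 of 19775 genes and 19 of 54613 probe sets, and 0 probe sets listed a member together with another gene. The cells were MHCC97H, a metastatic human HCC line, heated at 47 °C so that only residual cells remained, and then kept for 24 h with 100 ng/mL recombinant POSTN (3 arrays) or with 0 ng/mL (control, 3 arrays). Heating, line and medium were shared by both conditions, so unheated cells are not part of the comparison, and 1 line stands for HCC. The labels number the arrays 1, 2 and 3 within each condition, and no source used here says whether these were separate cultures, so p-values measure the spread between these arrays only. In total RNA from a culture, fewer cells of a kind and less RNA per cell cannot be told apart.

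Keratins are intermediate filament proteins that polymerise only as pairs of a type I and a type II chain. KRT8 (type II) with KRT18 (type I) is the pair of hepatocytes, and KRT7 (type II) and KRT19 (type I) are added in bile duct cells and in a part of HCC. Keratin filaments are anchored at desmosomes by desmoplakin (DSP) and plakoglobin (JUP). Tight junctions seal the space between epithelial cells with strands of claudins (CLDN1, CLDN7) and occludin (OCLN), which the scaffold ZO-1 (TJP1) ties to actin. In epithelial-mesenchymal transition (EMT), a program in which epithelial cells become motile, genes of these kinds are classical targets of repression by SNAI1 and ZEB factors, which bind the E-box letters CACCTG or CAGGTG in promoters. The study followed EMT in cells given POSTN, and the question put to these genes was whether their RNA differed with POSTN.

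The E-box is shown in the promoters because these repressors are read through it. RefSeq (GRCh38.p14) gave a promoter for 7 of the 10 genes (KRT8, CLDN1, CLDN7, OCLN, TJP1, DSP and JUP), and KRT7, KRT18 and KRT19 were not matched. Over the 250 bases before the listed start farthest upstream, CACCTG or CAGGTG (the same site read on the other strand) was found for OCLN, TJP1 and DSP and not for the other 4 genes. Of all 35116 promoter windows of that length, 17.5% hold these letters, as did 6 of 13 member windows once further starts were counted, which added 1 window each for CLDN7, OCLN and JUP and none for TJP1. The 3 windows follow, 5′ to 3′ on the strand of the gene, with the E-box in capitals. The last base of each is the one before the start, and the E-boxes begin 33 bases (OCLN), 88 bases (TJP1), and 178 and 85 bases (DSP) before it. OCLN is at chr5:69492297-69492546 (plus strand), TJP1 at chr15:29969050-29969299 (minus strand) and DSP at chr6:7541421-7541670 (plus strand).
OCLN: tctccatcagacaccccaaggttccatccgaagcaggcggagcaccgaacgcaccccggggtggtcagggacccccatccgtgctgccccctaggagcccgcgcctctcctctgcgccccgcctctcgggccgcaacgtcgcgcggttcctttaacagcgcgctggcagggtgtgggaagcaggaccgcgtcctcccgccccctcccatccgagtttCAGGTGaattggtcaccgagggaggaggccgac
TJP1: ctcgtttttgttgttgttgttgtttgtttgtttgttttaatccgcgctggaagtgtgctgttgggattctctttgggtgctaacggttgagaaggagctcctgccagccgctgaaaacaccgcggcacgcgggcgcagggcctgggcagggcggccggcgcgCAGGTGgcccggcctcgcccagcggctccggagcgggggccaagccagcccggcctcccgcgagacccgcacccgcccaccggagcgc
DSP: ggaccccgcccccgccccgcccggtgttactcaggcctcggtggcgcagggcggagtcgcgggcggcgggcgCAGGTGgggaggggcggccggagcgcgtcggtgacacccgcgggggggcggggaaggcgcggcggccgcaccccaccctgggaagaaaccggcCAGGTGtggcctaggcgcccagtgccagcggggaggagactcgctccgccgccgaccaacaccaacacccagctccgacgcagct
These letters describe the sequence only, and no binding was measured. The only KRT8 window (chr12:52926470-52926719, minus strand) lies inside the annotated gene (chr12:52897191-52949860). The sequence before the outer end of KRT8 was therefore not read. OCLN, TJP1 and DSP, which carry them, and KRT8, CLDN1, CLDN7 and JUP, which do not in this window, are given together below with the RNA signals of all 10 genes.

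The deposited values are log2 MAS 5.0 signals. The median log2 signal was 5.86 to 5.95 on POSTN arrays and 5.80 to 5.87 on control arrays, and between 47.7% and 49.7% of the probe sets of an array lay above a background level of 5.98, the 95th percentile of 107 probe sets of olfactory receptor genes. Of the 19 member probe sets, 15 had a mean above that level, among them the brightest of each gene. Cell type markers were checked against the same level. Of the hepatocyte markers, 6 of 9 were above it (ALB, AFP, TTR, APOB, FGB and TF), as were 3 of 7 cholangiocyte markers (SOX9, SPP1 and AQP1), 3 of 8 stellate cell and fibroblast markers (COL1A1, DCN and LUM), 2 of 5 endothelial markers (PECAM1 and KDR) and 0 of 4 leukocyte markers. ALB, the defining marker of hepatocytes, read 7.83 and 7.75 in the arrays numbered 1 (POSTN, then control) and 5.65 to 6.13 in the other 4, around that level. The leukocyte list, whole within the background range, had a summed linear signal of 66.5 to 85.2 with POSTN and 130.2 to 138.6 in control cells. In each of the other marker lists the summed signals of the conditions overlapped. Over the whole array, 7.94% of single probe sets did not overlap between the conditions. No marker of any list had an adjusted p under 0.05 with POSTN in limma.

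None of the 10 genes passed the test for a difference with POSTN, and changes within the intervals given below remain possible. Taking the brightest probe set per gene, the log2 difference (POSTN minus control) lay between -0.13 for CLDN7 and 0.13 for CLDN1, and every 95% confidence interval of the 10 held 0 and stayed within a fold change of 0.5 to 2. In limma, 0 of the 19 probe sets had an adjusted p under 0.05, as did 0 of all 54613 (0%), where the lowest adjusted p was 1.0 and 1649 probe sets had an unadjusted p under 0.05. The methods' thresholds (unadjusted p under 0.05 with a fold change over 2 or under 0.5) were met by 0 of the 19 and by 2.56% of all probe sets. An unadjusted p under 0.05 was reached by 0 of the 19 in limma, and by 1 (TJP1 214168_s_at) in the methods' t-test. The limma fit used here does not pair arrays by replicate number. With the number as a block, 0 of the 19 passed as well, at adjusted or unadjusted p.

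**Figure D1:**
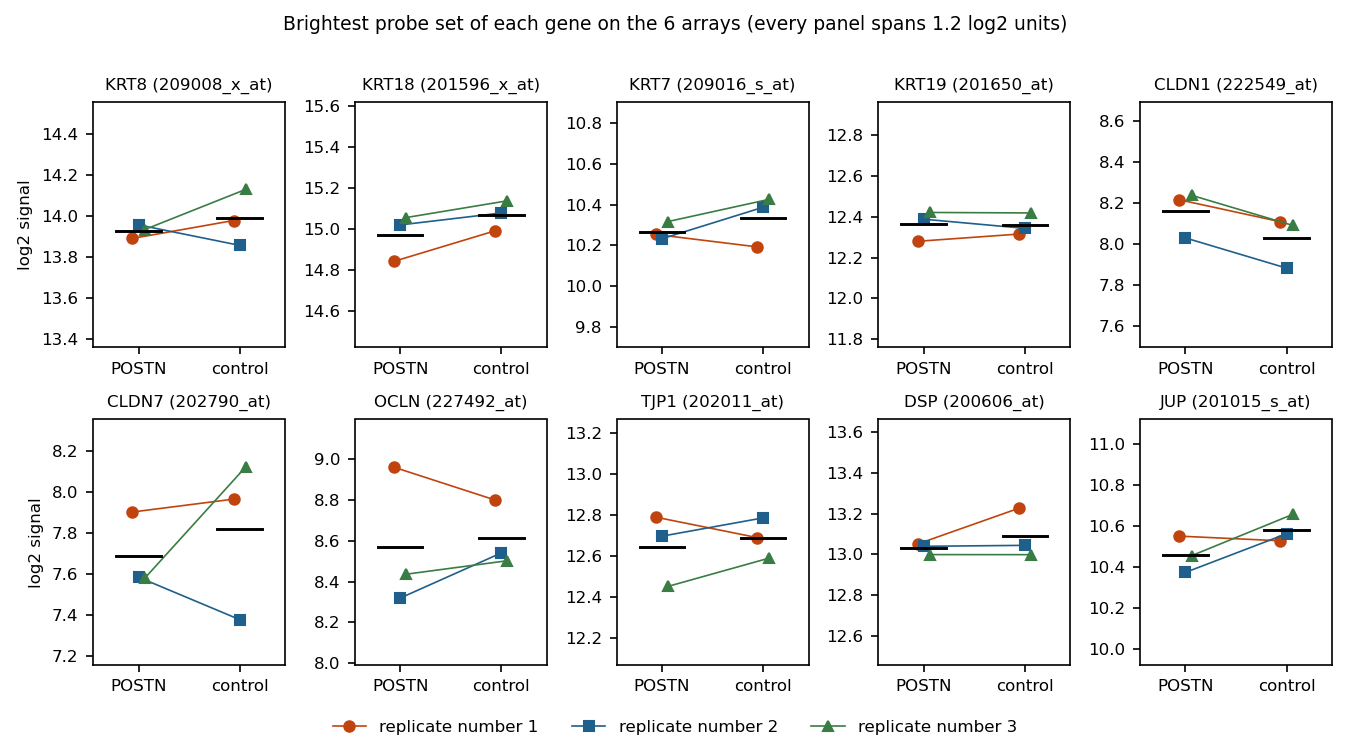
Log2 signal of the brightest probe set of each gene on the 6 arrays, POSTN left and control right, with the mean of each condition as a black bar and lines joining arrays of the same replicate number. Each panel spans 1.2 log2 units, and in all 10 panels the POSTN and control arrays overlap.

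The hepatocyte keratin pair did not pass the test. KRT8 had log2 signals of 13.89, 13.96 and 13.93 with POSTN, against 13.98, 13.86 and 14.13 in control cells. The highest of the 6 arrays and the lowest were both controls. The log2 difference was -0.06 (standard error 0.088, 95% confidence interval -0.26 to 0.13), a fold change between 0.84 and 1.10. KRT18, its type I partner, had 14.84, 15.02 and 15.06 with POSTN, against 14.99, 15.08 and 15.14 in control cells. Within each replicate number the POSTN array was the lower, by 0.15, 0.058 and 0.082, and the conditions overlapped. KRT18 averaged 14.97 ± 0.11 with POSTN and 15.07 ± 0.074 in control cells (SD, n = 3 each), a log2 difference of -0.10 (standard error 0.086, 95% confidence interval -0.29 to 0.096). Both genes are read by 1 probe set ending in _x_at, which may also bind RNA of related sequence, and RefSeq names 52 pseudogenes after KRT8 and 68 after KRT18, so their levels are uncertain to that extent. The signal of KRT18 was also near the highest on any array, 15.90, and whether the array still responds in proportion there was not tested.

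The bile duct keratins did not pass the test either. KRT7, read best by 209016_s_at, had 10.25, 10.23 and 10.32 with POSTN, against 10.19, 10.39 and 10.43 in control cells. The POSTN arrays lay inside the range of the controls, with a log2 difference of -0.07 (standard error 0.11, 95% confidence interval -0.30 to 0.17). KRT19, a keratin of bile duct cells that is also followed as a progenitor marker in HCC, had 12.28, 12.39 and 12.42 with POSTN, against 12.31, 12.34 and 12.42 in control cells. Its log2 difference was 0.0040 (standard error 0.083, 95% confidence interval -0.18 to 0.19), the smallest of the 10 in size. A further KRT7 probe set above background, 1558393_at, gave -0.07 (95% confidence interval -0.66 to 0.53). The remaining 3 keratin probe sets lay within the background range and were scattered: KRT7 1558394_s_at gave 0.96, KRT7 214031_s_at gave -0.86 and KRT19 228491_at gave 1.26, with standard errors of 0.85 to 1.19. Each rested on 1 array. Control replicate 1 read 2.33 on 1558394_s_at, where the other 5 arrays read 5.04 to 5.28, and without it the log2 difference was 0.022. Control replicate 1 also read 4.89 on 214031_s_at, where the others read 0.27 to 2.56, and without it the value was 0.30. POSTN replicate 3 read 5.16 on 228491_at, where the others read 1.46 to 3.10, and without it the value was 0.31.

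**Figure D2:**
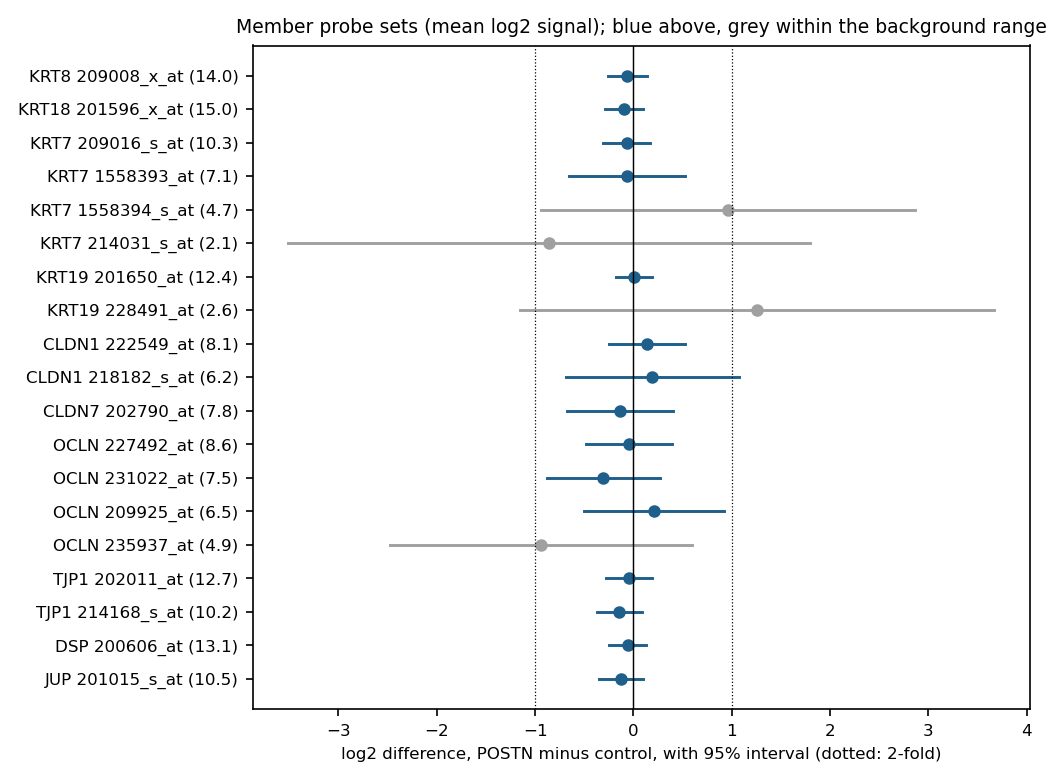
Log2 difference (POSTN minus control) of the 19 member probe sets with 95% confidence intervals from limma, the mean log2 signal in parentheses, blue for the 15 above background and grey for the 4 within the background range. Intervals are widest on the grey probe sets, and all 19 cross 0.

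On their brightest probe sets, the claudins had wider intervals than the keratins. CLDN1, which seals the junction against ions and water, had 8.22, 8.03 and 8.24 with POSTN, against 8.11, 7.88 and 8.09 in control cells on 222549_at. Within each replicate number the POSTN array was the higher, by 0.11, 0.15 and 0.15, and the conditions overlapped. CLDN1 averaged 8.16 ± 0.11 with POSTN and 8.03 ± 0.13 in control cells (SD, n = 3 each), a log2 difference of 0.13 (95% confidence interval -0.25 to 0.52), and 0.19 (95% confidence interval -0.68 to 1.07) on the dimmer 218182_s_at. CLDN7, a claudin found along the lateral membrane, had 7.90, 7.58 and 7.58 with POSTN, against 7.97, 7.38 and 8.12 in control cells. The 3 controls spanned more than the POSTN arrays, and the log2 difference of -0.13 (95% confidence interval -0.67 to 0.41) was 0.017 without control replicate 3.

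OCLN, the occludin strand protein, was read by 4 probe sets that did not share a direction. On the brightest, 227492_at, it had 8.96, 8.32 and 8.44 with POSTN, against 8.80, 8.54 and 8.50 in control cells. Replicate number 1 was the highest array of either condition, and the log2 difference was -0.04 (95% confidence interval -0.48 to 0.39). On 231022_at, OCLN was lower with POSTN in each replicate number, by 0.19, 0.24 and 0.49, with a log2 difference of -0.31 (95% confidence interval -0.88 to 0.27). On 209925_at it was 0.21 (95% confidence interval -0.51 to 0.92), and on 235937_at, within the background range, -0.94 (95% confidence interval -2.47 to 0.59). TJP1, which encodes the scaffold ZO-1, had 12.79, 12.70 and 12.45 with POSTN, against 12.69, 12.79 and 12.59 in control cells on 202011_at. Its log2 difference there was -0.04 (95% confidence interval -0.28 to 0.19). The dimmer TJP1 probe set 214168_s_at had 10.17, 10.09 and 10.04 with POSTN, against 10.26, 10.30 and 10.18 in control cells, and was the only member probe set on which the conditions did not overlap. This is 1 of 19, where 7.94% of all probe sets did not overlap. Its log2 difference was -0.14 (standard error 0.10), with limma p-values of 0.19 unadjusted and 1.0 adjusted.

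The desmosome plaque genes had standard errors of 0.086 (DSP) and 0.10 (JUP), within the range of the keratins on their brightest probe sets. DSP, which links keratin filaments to the plaque, had 13.05, 13.04 and 13.00 with POSTN, against 13.23, 13.04 and 13.00 in control cells. The conditions differed on control replicate 1 alone, and the log2 difference was -0.06 (95% confidence interval -0.25 to 0.13) and 0.0083 without that array. JUP, which binds desmosomal and classical cadherins, had 10.55, 10.37 and 10.46 with POSTN, against 10.53, 10.56 and 10.66 in control cells. Number 1 was level and numbers 2 and 3 were lower with POSTN, by 0.19 and 0.20. JUP averaged 10.46 ± 0.089 with POSTN and 10.58 ± 0.067 in control cells (SD, n = 3 each), a log2 difference of -0.12 (95% confidence interval -0.35 to 0.10).

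Over the 10 genes, 8 had a negative and 2 a positive log2 difference. Of the 11550 genes with a brightest probe set above background, 5446 had a positive one. The median of the 10 was -0.06, beside -0.0078 over those 11550. The median absolute difference was 0.064 for the 10 and 0.075 for the 11550. The sign of KRT8, KRT19, CLDN7, OCLN, TJP1 and DSP turned when 1 array was left out. Over the 19 probe sets, the sign was the same in all 3 replicate numbers on 5 (KRT18, CLDN1 222549_at, OCLN 231022_at and 235937_at, and TJP1 214168_s_at), or in 25.3% of all probe sets. Without both arrays numbered 1, the log2 differences of the 10 lay between -0.20 for JUP and 0.15 for CLDN1, with 0 of the 19 probe sets past the adjusted threshold.

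The same genes were then set by replicate number, since the arrays numbered 1 stood apart from those numbered 2 and 3 over the whole array. This was known when the contrast was chosen. In a limma fit with the condition as a covariate, 3.21% of all probe sets were higher and 2.99% lower in the arrays numbered 1 at an adjusted p under 0.05, against 0 higher and 0 lower of the 19 member probe sets. The F-test for any difference among the 3 numbers passed on 4.08% of all probe sets and on 0 of the 19, and between numbers 2 and 3 no probe set of the array passed. The members' non-overlapping probe sets were 4 of 19 (KRT18, KRT19 201650_at, OCLN 227492_at and DSP), beside 26.3% of all. These calls rest on a prior variance that follows the signal: without that trend 0 probe sets passed in limma, with 5842 at an unadjusted p under 0.05, and 128 higher and 94 lower when only probe sets above background were tested. With the trend, 1755 probe sets were higher and 1634 lower, against 821 and 901 without POSTN replicate 1 and 905 and 1077 without control replicate 1.

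OCLN and KRT18 differed most by number in relation to their error. OCLN 227492_at had 8.96 and 8.80 in the arrays numbered 1 (POSTN, then control), against 8.32 and 8.44 (POSTN) and 8.54 and 8.50 (control) in numbers 2 and 3. Both arrays numbered 1 were above the 4 others, a log2 difference of 0.43 (standard error 0.14, 95% confidence interval 0.12 to 0.74, adjusted p = 0.12 from limma). The other OCLN probe sets gave 0.34, 0.17 and 0.93 in the same direction. Without POSTN replicate 1 the value on 227492_at was 0.28 (adjusted p = 0.65 from limma). KRT18 was lower in the arrays numbered 1, at a mean log2 signal of 14.92 against 15.07, by 0.16 (standard error 0.048, 95% confidence interval -0.26 to -0.05, adjusted p = 0.088 from limma). It passed only when the test was restricted to probe sets above background (adjusted p = 0.034), and the log2 difference was -0.023 after quantile normalization (adjusted p = 0.86). KRT8, its partner, differed by -0.03 (95% confidence interval -0.17 to 0.10) and by 0.041 after quantile normalization. The other 7 genes lay between -0.12 for KRT7 and 0.27 for CLDN7, with adjusted p-values of 0.34 or more from limma. TJP1 202011_at was 0.22 higher in number 2 than in number 3, with limma p-values of 0.012 unadjusted and 0.79 adjusted. This was the lowest unadjusted p of the member probe sets in that contrast, which no probe set of the array passed.

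Other genes of the same structures were read from lists of keratins, other intermediate filaments, tight junctions, desmosomes, adherens junctions, hemidesmosomes and epithelial transcription and splicing regulators, on the brightest probe set of each. With POSTN, 0 of 81 measured genes passed, 36 being higher and 45 lower. The values above background that were largest in size were -0.89 for JAM3, a junctional adhesion molecule (standard error 0.50), -0.44 for CLDN19 (standard error 0.42), -0.32 for ITGB4, the hemidesmosome integrin chain (standard error 0.32), and 0.32 for NECTIN1, an adherens junction adhesion molecule (standard error 0.32). The further genes named here are those kept by a limit of 2 genes a list, not the next largest. The regulator OVOL1 was at -0.28, the desmosome plaque proteins PKP3 and PKP2 at 0.22 and 0.13, the lamins LMNB2 and LMNB1 at 0.18 and 0.17, and NECTIN3 at 0.17. Among claudins above background left out by that limit, CLDN4, CLDN2 and CLDN15 were at 0.22, 0.20 and 0.18, and CLDN12 at -0.0046. Differences for KLF5, KRT15, ITGA6 and KRT80 were 0.13, 0.12, 0.10 and -0.11.

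**Figure D3:**
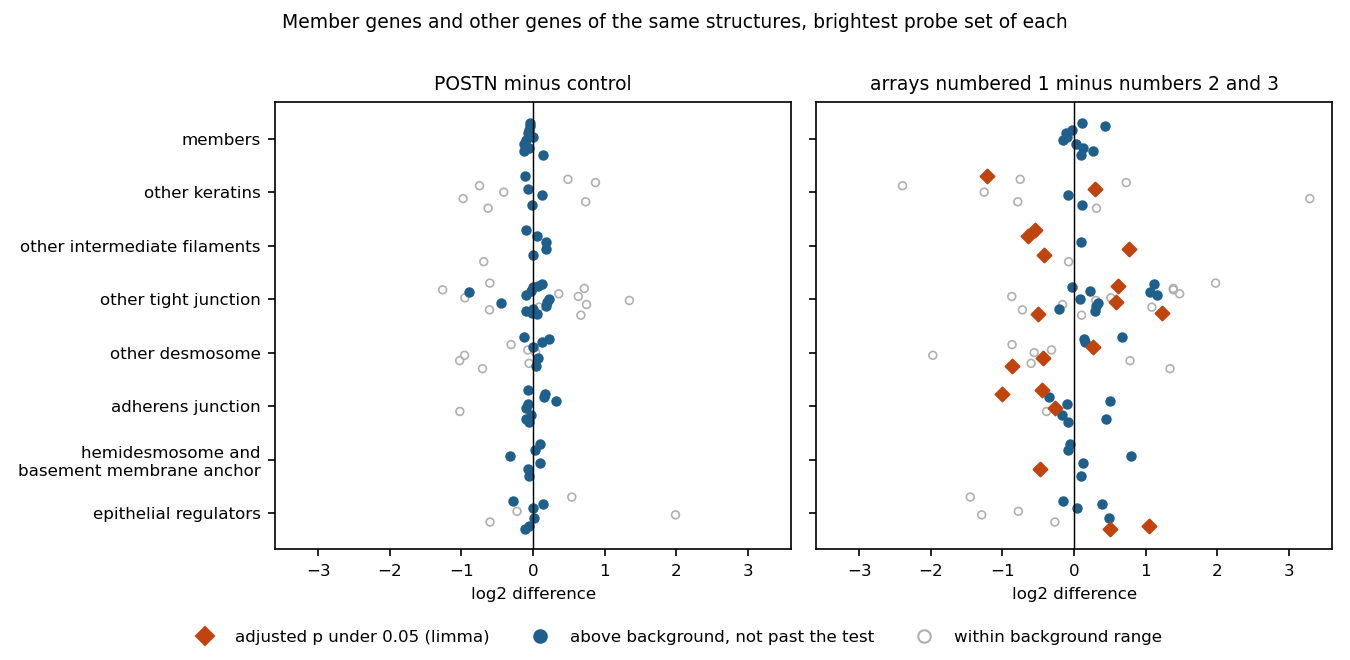
Log2 differences of the 10 member genes and of the listed genes, brightest probe set of each, for POSTN minus control (left) and for arrays numbered 1 minus numbers 2 and 3 (right). Diamonds mark an adjusted p under 0.05 in limma: 0 on the left, and 19 on the right, all among the listed genes.

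By replicate number, 8 of the 81 genes were higher and 11 were lower in the arrays numbered 1 at an adjusted p under 0.05 in limma, beside 5.08% and 4.73% of 19775 genes. All 19 were among the 50 listed genes above background, and 16.6% of the 11550 genes above background passed in either direction. Without the trend in the prior variance 0 of the 81 passed, with 22 at an unadjusted p under 0.05 in limma, and without POSTN replicate 1 the counts were 4 higher and 9 lower. Among the other keratins, KRT80, a type II keratin, was lower (8.40 and 8.59 in number 1 against 9.59 to 9.82 in the others, a log2 difference of -1.21, standard error 0.11), and KRT20, an intestinal type I keratin, was higher (log2 difference 0.29, standard error 0.051), 2 of 11 measured. Of 6 other intermediate filament genes, 4 passed: the lamin LMNB1 was higher by 0.77, and NES, VIM and LMNA were lower by 0.64, 0.55 and 0.42. VIM, the filament protein of mesenchymal cells, had 8.47 and 8.73 in number 1, against 8.94 to 9.37 in the others. Its call was lost without control replicate 1 (adjusted p = 0.055), POSTN replicate 1 (0.27) or POSTN replicate 3 (0.055).

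Of 25 tight junction genes, 3 were higher and 1 was lower in the arrays numbered 1. CGN, which encodes the cytoplasmic plaque protein cingulin, had 10.49 and 10.61 in number 1, against 9.10 to 9.50 in the others, a log2 difference of 1.23 (standard error 0.12). PARD6B, a polarity protein, was higher by 0.61, CLDN2, a pore-forming claudin, was higher by 0.58, and AMOTL2 was lower by 0.50. Of 13 desmosome genes, the cadherins DSC2 and DSG2 were lower by 0.86 and 0.43, and PERP was higher by 0.26. DSC2 had 9.04 and 9.08 in number 1, against 9.87 to 10.01 in the others, while DSP and JUP of the same plaque differed by 0.12 and 0.027, neither past the test. Of 10 adherens junction genes, 3 were lower: NECTIN3 by 1.0, the actin linker VCL by 0.45 and CTNNA1, the alpha-catenin, by 0.27. DST, a linker of keratin to the hemidesmosome in its epithelial form, was lower by 0.48, 1 of 6 measured. The epithelial transcription factors ELF3 and EHF were higher by 1.04 (standard error 0.086) and 0.50, 2 of 10 measured. The call of LMNB1 was lost without POSTN replicate 1 (adjusted p = 0.13), as was that of PARD6B (0.081). CLDN2, PERP and CTNNA1 each lost theirs without several arrays, control replicate 1 and POSTN replicates 1 and 3 among them, with adjusted p-values from 0.053 to 0.24. CTNNA1 and PERP also lost it when read on another probe set, their brightest not ending in _x_at or _s_at (adjusted p = 0.70 and 0.87), and CTNNA1 after quantile normalization (0.087).

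Cell type markers were also set by replicate number. Of all genes, 5.08% were higher and 4.73% lower, and 16.6% of the genes above background passed in either direction. In the arrays numbered 1, the hepatocyte genes TF, FGB, ALB and SERPINA1 were higher by 2.83, 2.65, 1.85 and 2.92 on the log2 scale. These were 4 of 9 measured past the adjusted threshold in limma. SERPINA1 had a mean within the background range, and ALB was around the background level in numbers 2 and 3. The calls of cell type markers were not repeated without the trend in the prior variance or without single arrays. Of the 9, 7 were higher and 2 lower, the lowest at -0.65. The summed linear signal of that list was 3203 to 3455, against 1081 to 1170 in numbers 2 and 3. SOX9 of the cholangiocyte list was higher by 1.78 (1 of 7 past the threshold), while the summed signal, carried by SPP1, was 26256 to 26914.5 against 26168 to 28317. DCN of the stellate cell list was lower by 1.0 (1 of 8, summed signal 2931 to 3397 against 3454 to 3844), and PECAM1 of the endothelial list was higher by 0.51 (1 of 5, summed signal 1416 to 1674 against 1014 to 1290). The leukocyte list had 0 of 4, with a summed signal of 66.5 to 130.2 against 70.8 to 138.6. Lists with 1 call or 0 are too short to be set against the shares over all genes. The part of these genes in the differences by replicate number was not tested.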

How the data were processed

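RNA of heat-treated residual MHCC97H cells with 100 or 0 ng/mL POSTN was hybridized to 6 arrays. The authors turned the scans into signals with MAS 5.0 and affy, in versions not given in the sources used here. Deposited log2 values are log2 MAS 5.0 signals, with a 2% trimmed mean of 500 on the linear scale on each array. MAS 5.0 subtracts local background and mismatch signal, so dim probe sets vary widely. Of 54675 probe sets, 62 Affymetrix controls were left out. Gene symbols came from the platform annotation, and 0 were changed by their Entrez identifiers. The number of arrays limits the precision.

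The POSTN arrays were set against the control arrays by limma 3.58.1 under R 4.3.3, with a trended prior in eBayes and no filter, and p-values were adjusted over 54613 probe sets by the Benjamini-Hochberg method. Replicate number 1 was compared with numbers 2 and 3 in a fit with the 3-level number and the condition. Genes with more than 1 probe set are represented by their brightest (highest mean). The deviations of same-numbered POSTN and control arrays from their condition means correlated at 0.53, 0.23 and 0.24 over the 25320 probe sets above background, so the numbers were taken as pairing the arrays. Arrays of unlike number correlated at 0.20 (POSTN 3 with control 2) and 0.15 (POSTN 2 with control 3), and at -0.36 to -0.30 where 1 of the pair was numbered 1, so the separation is mainly of number 1. This pairing comes from the data and is stated by no label. The number as a block was an alternative, beside quantile normalization, median centring, log2(signal + 50), filters on dim and on _x_at and _s_at probe sets, a prior without trend, array weights, the methods' t-test, and leaving out each array. Scripts were tested on simulated data. The members, lists and contrasts were chosen with earlier results of these data known. Named list genes are the 4 with the largest difference past an adjusted p of 0.05 in a list, or, with none, the 2 above background with the largest difference. List genes without a probe set of 1 symbol were not analysed here.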

Additional observations from a re-analysis of the deposited data

How the results depend on the processing

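Over 16 planned settings for POSTN, the log2 differences of the 10 genes on their standing probe sets stayed between -0.36 and 0.20, with a lowest adjusted p of 0.97, and 0 member probe sets passed. With the replicate block, which treats arrays of a number as paired, the count was also 0 (KRT18 -0.10), and the block changed no other call. Standard errors and intervals given for POSTN elsewhere are without the block. It lowered the standard error of each of the 10 genes, for KRT18 from 0.086 to 0.045 (unadjusted p = 0.055 from limma). Some dimmer member probe sets had larger errors with it, as KRT19 228491_at (1.08 to 1.15). Among listed genes above background, only JAM3 (-1.60 to -0.17) and LMNB2 (0.011 to 0.35) had block intervals without 0. Their p-values from limma were 0.019 and 0.039 unadjusted, and 0.97 adjusted. Study thresholds were met by 1398 probe sets of the array, 14 with log2(signal + 50), 49 above background, and 1314 to 1530 without single arrays. KRT19 turned to -0.047 when arrays were centred on their medians and ITGB4 to 0.12 without _x_at and _s_at probe sets. Other probe sets reversed the sign for KRT7 (1558394_s_at, 0.96) and OCLN (209925_at, 0.21). Without single arrays, signs turned within these ranges: KRT8 -0.13 to 0.0096, KRT19 -0.025 to 0.045, CLDN7 -0.36 to 0.017, OCLN -0.24 to 0.084, TJP1 -0.11 to 0.055, DSP -0.10 to 0.0083, KRT15 -0.015 to 0.21, KRT80 -0.50 to 0.31, LMNB1 -0.15 to 0.44, NECTIN3 -0.21 to 0.46, ITGA6 -0.035 to 0.20 and KLF5 -0.084 to 0.27. For number 1 against 2 and 3, KRT8 gave 0.041 after quantile normalization, KRT7 gave 0.095 without _x_at and _s_at probe sets (1558393_at) and 2.19 on 214031_s_at, and CLDN1 gave -0.29 on 218182_s_at. Without single arrays KRT8 ranged from -0.095 to 0.026 and JUP from -0.082 to 0.14. Probe sets of the array past the adjusted threshold (1755 higher, 1634 lower) were 983 and 934 without _x_at and _s_at probe sets, where fewer were tested, 0 and 0 without the trend, 128 and 94 without the trend above background (a setting added after the data were seen), and 821 to 2391 higher and 901 to 2185 lower without single arrays. The lowest counts came without POSTN replicate 1, and without control replicate 1 they were 905 and 1077. Listed genes (8 higher, 11 lower) were 13 higher above background, where the 19 were kept, 0 and 0 without the trend, 1 and 1 (JAM3 and KRT80) without the trend above background, and 4 (without POSTN replicate 1) to 11 higher and 9 to 12 lower without single arrays. Without _x_at and _s_at probe sets they were 5 and 6, where a gene whose brightest probe set ends so could not be counted. That count therefore does not show how many calls were lost. Member probe sets past the threshold were 1 (KRT18) above background and 0 elsewhere. The cause of these shifts was not tested. With 3 arrays a condition, the median standard error was 0.18 above background, and dimmer probe sets bound little.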
